A study of Mus musculus with 15 samples.

Results

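The genes described here are those whose symbol starts with Nduf, the nuclear genes for subunits and assembly factors of respiratory complex I, taken by symbol from the array's probe annotation. There were 39 such genes among the 12393 genes tested, read by 74 probe sets that match a single gene, and 8 further probe sets match an Nduf gene together with another gene. Of the 39, 33 encode subunits of complex I and 5 encode assembly factors. The remaining gene, Ndufa4, carries the name but its protein is now known as a subunit of complex IV. RNA from liver was hybridised to Affymetrix mouse arrays in 5 groups of 3 mice, all given as adult male and 3 months old, with 1 array per mouse and replicates labelled as biological. Z mice carried human alpha1-antitrypsin Z and M mice the normal M form, under inducible expression confined to hepatocytes by design. In the groups called Z-on and M-on (labelled Z4 and M4) the mice received no doxycycline and the human protein was expressed. In Z-off and M-off (labelled Z1 and M1) they drank doxycycline at 40 µg/mL from conception and expression was shut off. The fifth group was of nontransgenic littermates (labelled WT), which received no doxycycline. Transgene expression and doxycycline therefore change together in each on-off comparison and cannot be told apart there, while the on groups and the littermates were all without doxycycline.

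Complex I is the entry point of the respiratory chain. It oxidises NADH in its N module, passes the electrons along iron-sulfur clusters to quinone in its Q module, and pumps protons through a membrane arm made of a proximal and a distal module. Its hydrophobic core subunits are encoded by mitochondrial DNA and are not analysed here. Hepatocytes hold many mitochondria, and assembly factors bind intermediates of the complex without staying in it. Human alpha1-antitrypsin is a protease inhibitor that liver secretes, and its Z form folds poorly and is retained in the endoplasmic reticulum.

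Values are the deposited linear probe set signals. Each gene was read through its probe set with the highest mean signal, and log2(signal + 16) was tested with limma across all genes. "Called", "rose" and "fell" mean a Benjamini-Hochberg adjusted p under 0.05 over all 12393 genes, changes are on that log2 scale with their standard error (SE), and group means carry the SD over 3 arrays. In bulk liver, fewer cells of a type and less RNA per cell cannot be told apart.

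In the Z line, 16 of the 39 Nduf genes fell with the transgene on and 2 rose. The share of all genes called was 7.56% lower and 31.8% higher. In the M line 12 fell and 4 rose, where the shares over all genes were 12.5% and 38.1%. The median change of the Nduf genes was -0.30 in the Z line and -0.15 in the M line, against 0.25 and 0.29 over all genes. The same 10 genes fell in both lines, which is 62.5% of the Nduf genes that fell in the Z line and 83.3% of those in the M line. The overlap over all genes is not given here, so this overlap is not shown to be particular to the Nduf genes. The 10 are named next. They are Ndufa1, Ndufa2, Ndufa4, Ndufa5, Ndufa6, Ndufa13, Ndufb6, Ndufc1, Ndufc2 and Ndufs8. Ndufaf5 was called higher in both lines, 0 genes were called in opposite directions, and 16 were called in neither.

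**Figure D1:**
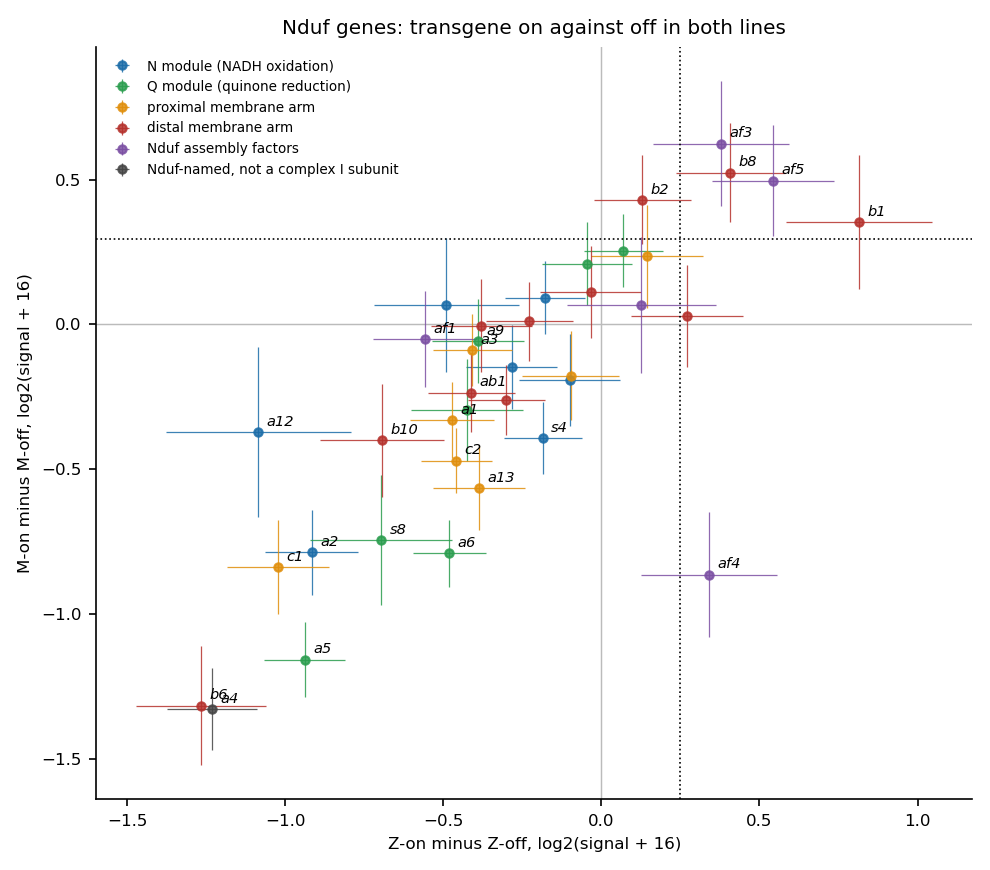
Change of 38 Nduf genes with the transgene on against off, Z line on the horizontal and M line on the vertical axis, on the log2(signal + 16) scale with bars of 1 SE and colours for the place in complex I (Ndufs5, with an SE of 0.96, is not drawn). Dotted lines are the medians over all genes, 0.25 and 0.29; genes called in either line are named without "Nduf", and Ndufa4 and Ndufb6 are the lowest in both, below -1.2.

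Most Nduf probe sets are bright, and this bears on the comparison with all genes. Of the 39 genes, 35 lay above the 80th percentile of mean signal. Among the 31 Nduf genes in the brightest decile, the median change was -0.39 in the Z line and -0.19 in the M line. All 1240 genes of that decile had medians of -0.16 and -0.12. The fourth decile from the bottom had medians of 0.75 and 0.89, so positive changes were concentrated among dimmer probe sets. Over the 2479 genes above the 80th percentile, 479 fell and 384 rose in the Z line, and 708 fell and 483 rose in the M line. These falls were 19.3% and 28.6% of the bright genes, beside 41.0% and 30.8% of the Nduf genes. In the M line the Nduf share was near that of the bright genes. After quantile normalization, which gives all arrays 1 distribution of signals, 7 Nduf genes fell and 1 rose in the Z line, with 10.5% and 15.7% of all genes called. In the M line 11 fell and 4 rose, with 15.5% and 23.5% of all genes called. These 4 were Ndufa7, Ndufb2, Ndufb8 and Ndufs7, while Ndufaf3 and Ndufaf5 lost their calls. The Nduf medians were then -0.17 and -0.05 and those over all genes 0.05 and 0.10. The genes lower in both lines were 5 and not 10, both after quantile normalization and after cyclic loess, namely Ndufa2, Ndufa4, Ndufa5, Ndufb6 and Ndufc1. In the Z line, Ndufa1, Ndufa6, Ndufa13, Ndufc2 and Ndufs8 lost their calls under both, and so did Ndufa3, Ndufa9 and Ndufab1. In the M line, Ndufa1 lost its call under both and Ndufa13 and Ndufs8 after cyclic loess alone (adjusted p = 0.0576 and 0.0548).

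**Figure D2:**
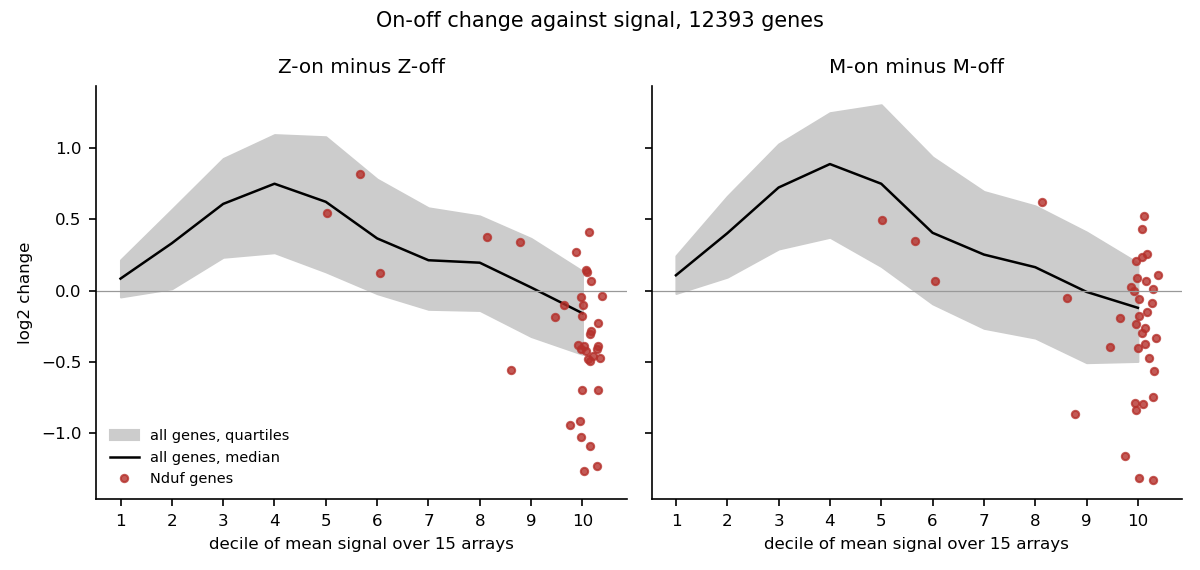
Change with the transgene on against off (vertical, log2 scale) by decile of mean signal over 15 arrays (horizontal, brightest at 10), Z line left and M line right. The black line and grey band are the median and quartiles of all 12393 genes, which peak at 0.75 and 0.89 in the fourth decile and lie at -0.16 and -0.12 in the brightest; red points are 38 Nduf genes, most of them in the brightest decile.

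The arrays themselves differed between groups in ways that go with the on-off comparison. Median signals were 43.9 to 54.9 on the on arrays, 30.4 to 32.2 on the off arrays and 42.3 to 44.9 on littermate arrays. The probe set for the 18S ribosomal RNA 5′ end read 1830 to 2680.7 on the on arrays and 75 to 568.1 on all others, and the median of the polyadenylated spike-in controls read 2 to 5.2 against 33.8 to 57.9. The arrays labelled M-on 1 and M-on 2 went against the label male, with Xist at 1149.2 and 226 (13.7 to 74.3 on the 13 others) and Eif2s3y, a Y-linked gene, at 0.4 and 1.3. Eif2s3y read 42.1 on M-on 3 and 105.3 to 437.6 on the 12 arrays of other groups. The summed signal of 8 hepatocyte markers was 72310.6 to 85770.5 in littermates and 42772.6 to 57107.5 in the transgenic groups, and all 8 were measured. Alb, Ttr, Apoa1 and Serpina1c were each higher in littermates than on any transgenic array. Cps1, Tat, Pck1 and Hnf4a overlapped. That of 6 Kupffer cell markers was 1861.5 to 2183 in M-on and 796.9 to 1827.6 elsewhere. Summed endothelial markers were 881.7 to 1431.4 on the on arrays and 600.7 to 798.8 on the off arrays, and lymphocyte markers 111.8 to 179.7 and 29.6 to 73.8. Of these, Stab2, Kdr, Cd79a, Ms4a1 and Cd8a were higher on every on array than on any off array. Clec4g, Pecam1, Oit3 and Cd3e overlapped. Lyve1 went mostly the other way (13.4 to 32.2 on, 23.4 to 50 off), and so did Ltb (1.6 to 3.9 on, 3.2 to 22.1 off). No lymphocyte marker read above 67.5 on any array. Summed stellate cell markers were 1655 to 1672.4 in Z-on and 957.9 to 1157.2 in Z-off, and overlapped in the M line. In the Z line Lrat and Col3a1 overlapped, and the other stellate markers were higher on every Z-on array. The ratio of 3′ to 5′ probe set signal, a gauge of RNA integrity, was for actin 1.29 to 1.73 on the on arrays, 1.66 to 2.06 on the off arrays and 2.34 to 2.46 in littermates. For Gapdh it was 1.05 to 1.11 in littermates and 0.755 to 0.962 elsewhere. The part of these differences in the results was not tested.

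In the N module, which holds the NADH-binding flavoprotein, 2 of 7 measured genes fell in each line and 0 rose (Ndufs6 is not analysed here through a probe set of its own). The module's median was -0.28 in the Z line and -0.19 in the M line. Counts by module are to be read against the shares of all genes, 7.56% lower and 31.8% higher in the Z line. In the M line these were 12.5% lower and 38.1% higher. Most Nduf genes are bright, and the shares that fell among bright genes, given above, were larger in both lines. Falls by module are to be read against those shares too. Ndufa2, a small accessory subunit, read 745.5, 701.4 and 639.8 in Z-on against 1421.5, 1280 and 1276.6 in Z-off. It read 552.5, 727.5 and 842.5 in M-on against 1180, 1178.8 and 1290.1 in M-off, and 1103.8, 979.6 and 1140.6 in littermates. All 6 on arrays lay below all 9 others. Ndufa2 fell by 0.92 ± 0.15 in the Z line (adjusted p = 0.000312) and by 0.79 ± 0.15 in the M line (adjusted p = 0.000586). Ndufa12, another accessory subunit of the peripheral arm, fell in the Z line from 2209.5 ± 257 to 1063.5 ± 349 (-1.09 ± 0.29, adjusted p = 0.00987). In the M line its change was -0.37 ± 0.29 with overlapping arrays (adjusted p = 0.307), and the difference between the lines was not called.

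Ndufs4, an accessory subunit whose loss causes Leigh syndrome, fell in the M line from 596.43 ± 24.7 to 452.03 ± 49.4 (-0.39 ± 0.12, adjusted p = 0.0165). Its change in the Z line was -0.19 ± 0.12 (adjusted p = 0.252). Ndufv2, which carries an iron-sulfur cluster next to the flavoprotein, was 1419.3 ± 88.8 in Z-on against 1731.5 ± 132 in Z-off, and 1520.4 ± 275 in M-on against 1672.5 ± 182 in M-off, with littermates at 1795.1 ± 92.8. It was called in neither line. Ndufv1, the NADH-binding subunit, had changes of -0.18 ± 0.13 and 0.09 ± 0.13 through its brightest probe set, and its other probe sets differed from this, as described below. Ndufs1 and Ndufv3 were not called in either line.

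In the Q module, where iron-sulfur clusters hand electrons to quinone, 4 of 7 measured genes fell in the Z line and 3 in the M line, and 0 rose. The medians were -0.43 and -0.30. Ndufa5, an accessory subunit of the peripheral arm, read 550.4, 545.4 and 451.3 in Z-on and 1074, 1000.6 and 927.4 in Z-off. It read 364.3, 425.3 and 460 in M-on against 922.4, 899.3 and 1017.4 in M-off, with littermates at 714.4, 769.7 and 806.2. The groups formed 3 levels, with the on arrays lowest, littermates between and the off arrays highest. Ndufa5 fell by 0.94 ± 0.13 in the Z line (adjusted p = 0.00011) and by 1.16 ± 0.13 in the M line (adjusted p = 1.42e-05).

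Ndufa6, an accessory subunit of the LYR protein family, read 1220.7, 1170.3 and 1083.7 in Z-on and 1634.6, 1657.6 and 1572 in Z-off. The values were 1051.5, 969.6 and 864.3 in M-on against 1729, 1543.5 and 1746.9 in M-off, with littermates at 1564.2, 1724 and 1692.6. Here the off groups lay among the littermates and only the on groups stood below. The falls were 0.48 ± 0.11 (adjusted p = 0.00466) and 0.79 ± 0.11 (adjusted p = 9.17e-05). After quantile normalization the Z-line change was -0.27 and not called (adjusted p = 0.143). Ndufs8, which binds iron-sulfur clusters in the chain to quinone, fell from 3042.6 ± 410 to 1868.8 ± 232 in the Z line (adjusted p = 0.0244) and from 3056.1 ± 354 to 1870.9 ± 557 in the M line (adjusted p = 0.0132). Littermates ranged from 2034 to 3055 for Ndufs8, across much of the span between on and off arrays. Ndufa9, an accessory subunit that binds a nucleotide cofactor, fell in the Z line by 0.39 ± 0.15 (adjusted p = 0.0482), and its change in the M line was -0.06 ± 0.15 (adjusted p = 0.768). Ndufa7, Ndufs3 and Ndufs7 were called in neither line. In the M line Ndufa7 was called higher after quantile normalization (0.45, adjusted p = 0.00987) and cyclic loess (0.42, adjusted p = 0.0134). Ndufs7 was called higher there after quantile normalization (0.36, adjusted p = 0.047), but not after cyclic loess (adjusted p = 0.0521).

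In the proximal membrane arm, 5 of 8 measured genes fell in the Z line and 4 in the M line, and 0 rose (Ndufa11 is not analysed here through a probe set of its own). The medians were -0.40 and -0.25. Ndufc1, a small membrane subunit, read 713.1, 698.2 and 536.9 in Z-on against 1573, 1373.6 and 1080.4 in Z-off. It read 635.8, 812.3 and 782.6 in M-on against 1353.8, 1277.1 and 1373.4 in M-off, and 967.6, 1130 and 1144.3 in littermates. All 6 on arrays lay below all 9 others for this probe set, and a second probe set of Ndufc1 did the opposite. The falls were 1.02 ± 0.16 (adjusted p = 0.000291) and 0.84 ± 0.16 (adjusted p = 0.000777).

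Ndufa13, also known as GRIM-19, read 2012.9, 2089 and 1630.1 in Z-on and 2484.6, 2790.5 and 2226.3 in Z-off. It read 1600.4, 1793.2 and 2016.9 in M-on against 2850.2, 2844.2 and 2330 in M-off, with littermates at 3369.6, 3745.6 and 3884.8. Littermates were highest, the off groups lower and the on groups lowest, with no overlap between on and off within a line. Its falls with the transgene on were 0.39 ± 0.15 (adjusted p = 0.0489) and 0.56 ± 0.15 (adjusted p = 0.0055). Ndufa1, a membrane subunit encoded on the X chromosome, fell by 0.47 ± 0.13 in the Z line (adjusted p = 0.0117) and by 0.33 ± 0.13 in the M line (adjusted p = 0.0491), with overlapping arrays in the M line. Ndufc2, the partner of Ndufc1, fell by 0.46 ± 0.11 (adjusted p = 0.00552) and 0.47 ± 0.11 (adjusted p = 0.00332). Ndufa3, another small membrane subunit, fell in the Z line by 0.41 ± 0.12 (adjusted p = 0.0189), and its change in the M line was -0.09 ± 0.12. Ndufa8 and Ndufa10 were called in neither line.

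Ndufs5, a subunit on the intermembrane-space side, varied more within groups than between them. Its probe set read 79.3 to 155.2 on 8 arrays and 487.6 to 1245.7 on the other 7. Low and high arrays were both present in every group but M-off, whose 3 arrays were all low. A probe set shared by Ndufs5 and its pseudogene Ndufs5-ps read 476.1 to 1084.1 on the 15 arrays and did not split them this way.

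The distal membrane arm differed from the other modules in its counts. In the Z line 3 of 11 measured genes fell and 1 rose, and in the M line 1 fell and 2 rose, with medians of -0.23 and 0.01 (Ndufb4 is not analysed here through a probe set of its own). Whether the modules differ was not tested. Ndufb6, an accessory subunit of this arm, had the largest fall of the Nduf genes in the Z line. It read 762.4, 800.6 and 600.8 in Z-on against 1650.2, 1612.9 and 1993.7 in Z-off. In M-on it read 534.4, 642.3 and 941.9 against 1465.3, 1686.4 and 2109.9 in M-off, and in littermates 1098.7, 966 and 846.2. Littermates lay between on and off and overlapped M-on. The falls were 1.27 ± 0.21 (adjusted p = 0.000351) and 1.32 ± 0.21 (adjusted p = 0.000156).

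Ndufb1, a small subunit of the same arm and a dim probe set, read 85.4, 104.1 and 88.1 in Z-on against 31.4, 55.6 and 52.6 in Z-off, and rose by 0.81 ± 0.23 (adjusted p = 0.0129). This was 0.47 after quantile normalization and 0.40 after cyclic loess, without a call (adjusted p = 0.149 and 0.205). In the M line it changed by 0.35 ± 0.23 (adjusted p = 0.22). Ndufb8, a subunit whose protein is often used as a gauge of assembled complex I, rose in the M line from 1259.9 ± 104 to 1849.3 ± 422 (0.52 ± 0.17, adjusted p = 0.0204). In the Z line it was 1879.2, 1836.6 and 1349 on against 1216.4, 1264 and 1283.8 off, without overlap and with an adjusted p of 0.0728; it was called higher after quantile normalization (0.67) and cyclic loess (0.59). Ndufb2 rose in the M line by 0.43 ± 0.15 (adjusted p = 0.0317), from arrays at 1200.9, 1672.4 and 2007.9 against 1095.6, 1175.3 and 1268.1, which overlap. Ndufb10 fell in the Z line by 0.69 ± 0.19 (adjusted p = 0.0122), and Ndufab1, the mitochondrial acyl carrier protein, by 0.41 ± 0.14 (adjusted p = 0.0289). Ndufb9, another LYR family subunit, was 3399.6 ± 443 in Z-on against 3463.5 ± 104 in Z-off, and 3775.9 ± 811 in M-on against 3438.3 ± 98.7 in M-off, with littermates at 3527.8 ± 396. Ndufb3, Ndufb5, Ndufb7, Ndufb9 and Ndufb11 were called in neither line.

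**Figure D3:**
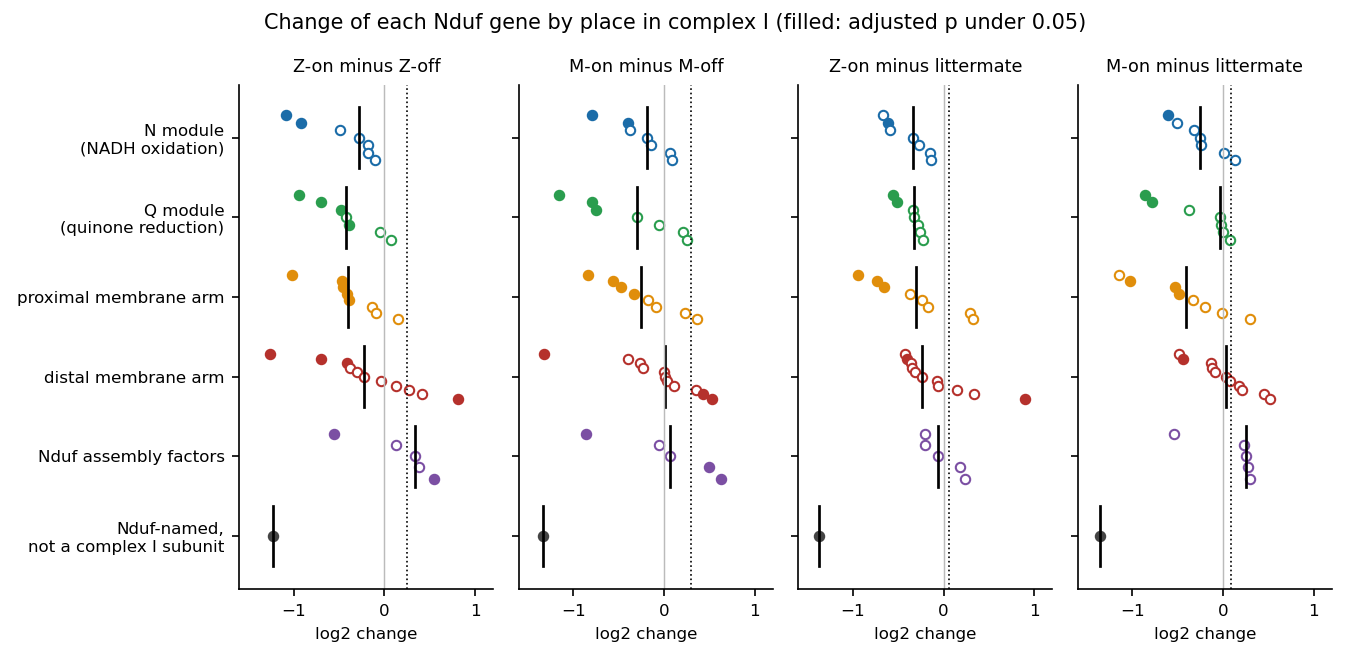
Change of each Nduf gene on the log2 scale in 4 comparisons (panels), by place in complex I (rows). Points are genes, filled where the adjusted p is under 0.05, black bars are row medians and dotted lines the medians over all genes; the medians with the transgene on against off lie at -0.28 (N module), -0.43 (Q module), -0.40 (proximal arm) and -0.23 (distal arm) in the Z line, and Ndufa4 stands alone in the bottom row below -1.2 in every panel.

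The assembly factors moved in both directions. Of 5 measured, 1 rose and 1 fell in the Z line, and 2 rose and 1 fell in the M line (Ndufaf2, Ndufaf6 and Ndufaf8 are not analysed here). Over all genes 31.8% rose and 7.56% fell in the Z line, and 38.1% and 12.5% in the M line. The rises are thus not shown to be particular to these 5 genes. Ndufaf5, which hydroxylates the Ndufs7 protein, read 45.7, 57.5 and 61.6 in Z-on and 26.8, 32.6 and 38.6 in Z-off. It read 52.9, 50.5 and 62.9 in M-on against 22.7, 40.3 and 43.1 in M-off, with littermates at 60.8, 40.3 and 33.8. On arrays lay above off arrays in each line, and littermates spread over both. Its rises of 0.54 ± 0.19 (adjusted p = 0.0376) and 0.50 ± 0.19 (adjusted p = 0.0447) were 0.09 and 0.07 after quantile normalization (adjusted p = 0.779 and 0.813).

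Ndufaf4, which works with Ndufaf3 on the Q module, was the gene whose change differed most between the lines. It read 289.4, 347.5 and 351.1 in Z-on against 290.9, 214.4 and 267.5 in Z-off, and 282.8, 158.4 and 161 in M-on against 380.6, 387.1 and 332.2 in M-off. Littermates read 299.1, 360.8 and 221.9, which overlaps both Z groups and M-on and M-off. It fell in the M line by 0.86 ± 0.22 (adjusted p = 0.00432) and changed by 0.34 ± 0.22 in the Z line (adjusted p = 0.228). Its other probe set had changes of -1.89 ± 0.35 in the M line (adjusted p = 0.000656 among all probe sets) and 0.03 ± 0.35 in the Z line. The difference between the on-off changes was 1.21 ± 0.30 with an adjusted p of 0.0926, so it was not called. Ndufaf3 rose in the M line from 164.7 ± 16.7 to 265.67 ± 55.4 (adjusted p = 0.0266), and Ndufaf1, which binds early membrane intermediates, fell in the Z line from 296 ± 15.1 to 196.77 ± 24.2 (adjusted p = 0.0161). Ndufaf7 was called in neither line.

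Ndufa4 had nearly the same change in both lines. It read 1365.6, 985.3 and 1417.5 in Z-on against 3174.2, 2943.9 and 2700.9 in Z-off. It read 1173.3, 1209.1 and 1383.6 in M-on against 3161.8, 3176.3 and 3173 in M-off, with littermates at 3085.8, 3221.4 and 3369.8. All 6 on arrays lay at 1417.5 or less and all 9 others at 2700.9 or more. The falls were 1.23 ± 0.14 in the Z line (adjusted p = 3.47e-05) and 1.33 ± 0.14 in the M line (adjusted p = 1.08e-05). Against littermates they were 1.37 ± 0.14 in Z-on (adjusted p = 0.000169) and 1.35 ± 0.14 in M-on (adjusted p = 0.000112).

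**Figure D4:**
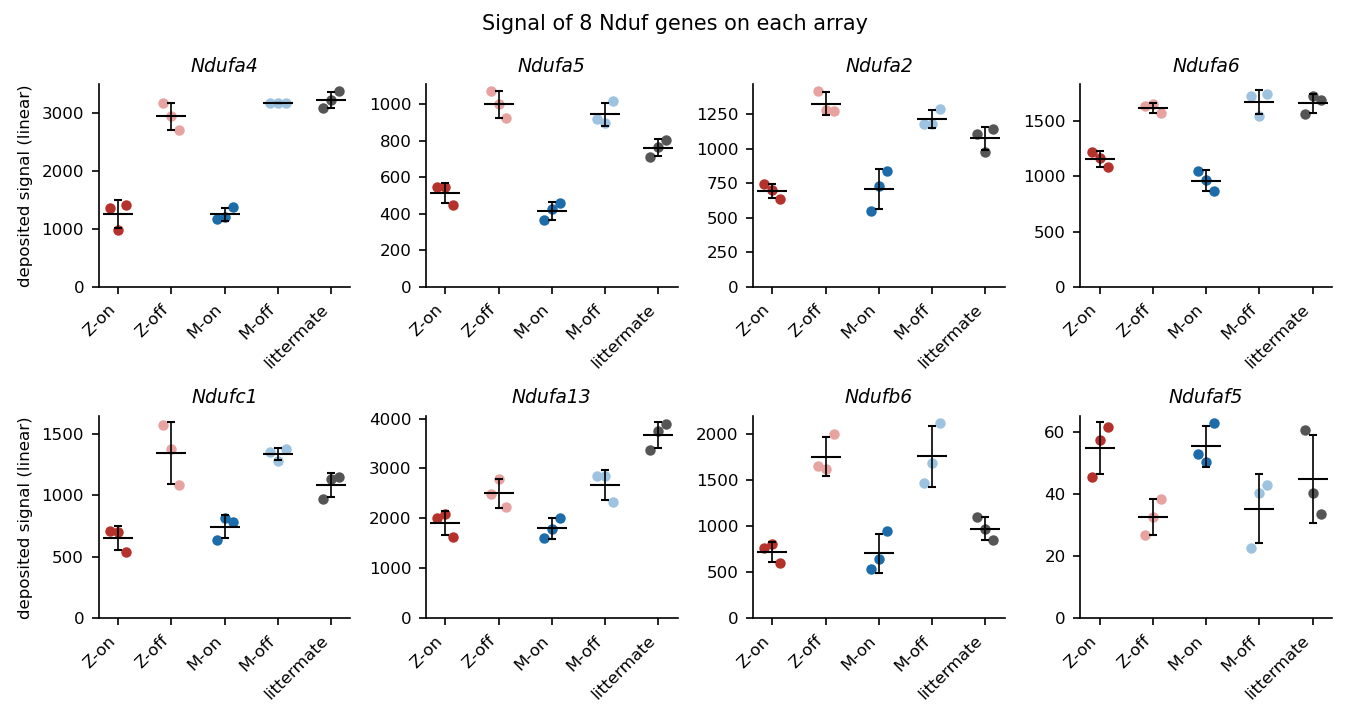
Deposited signal (vertical, linear, from 0) of 8 Nduf genes on each of 15 arrays, by group, with the group mean and SD over 3 arrays as a dash and bars. For Ndufa4, Ndufa5, Ndufa2, Ndufa6 and Ndufc1 all on arrays lie below all other arrays, littermates are highest for Ndufa13 and between on and off for Ndufb6, and for Ndufaf5 the on arrays at 45.7 to 62.9 lie above the off arrays.

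Calls near the threshold were often lost when a single array was left out. In the Z line, 9 of the 16 genes that fell stayed called when any of the 6 arrays was left out, namely Ndufa4, Ndufa5, Ndufc1, Ndufa2, Ndufb6, Ndufa6, Ndufc2, Ndufa12 and Ndufa1. Of these, Ndufa6, Ndufc2 and Ndufa1 were among those that lost the call under both other normalizations (adjusted p = 0.0779 to 0.201). Without Z-on 3 the calls for Ndufb10, Ndufaf1 and Ndufa3 ended (adjusted p = 0.0568, 0.0705 and 0.0707), and without Z-off 1 that for Ndufb1 ended (0.0662). Ndufs8, Ndufaf5 and Ndufa13 each lost the call without any of 4 arrays, Ndufab1 without any of 5 and Ndufa9 without any of 6. In the M line 9 of the 12 that fell stayed called, the exceptions being Ndufs8, Ndufs4 and Ndufa1. Ndufs8 lost its call without M-on 1 or M-off 3 (adjusted p = 0.0566 and 0.054) and Ndufs4 without M-on 1 or M-off 1 (0.0562 and 0.0519). Ndufa1 lost it without any of 4 arrays, at an adjusted p of 0.125 to 0.147. The 4 rises of the M line, in Ndufb8, Ndufaf3, Ndufb2 and Ndufaf5, were each lost without at least 3 different arrays, at adjusted p from 0.0621 to 0.21.

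Within M-on the arrays also stood apart for these genes. M-on 1 was the lowest M-on array for 34 of 39 Nduf genes, with a median of -0.45 log2 units against the other arrays of its group. M-on 3 was the highest for 28. Among genes above the 80th percentile of signal, M-on 1 was lowest for 47.0%, with a median of -0.09. Z-on 3 was likewise the lowest Z-on array for 33 of 39, with a median of -0.23, and for 38.8% of the brighter genes, with a median of -0.020. Without M-on 1 the M line had 15 called Nduf genes, 9 lower and 6 higher, and the median change of all 39 was -0.01. Of the 16 called with it, 12 stayed, Ndufs8, Ndufs4, Ndufa1 and Ndufaf5 were lost, and Ndufa7, Ndufa10 and Ndufs7 were gained. Without M-on 1 and M-on 2 only M-on 3 was left, the array that was highest for 28 Nduf genes. The M-line median was then 0.06, so its sign rests on the arrays left out. With M-on 3 alone, the 12 genes called lower in the M line had changes from -1.19 for Ndufa4 to -0.14 for Ndufa1.

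Against littermates, which share the absence of doxycycline, 8 Nduf genes were lower in Z-on and 8 in M-on. Over all genes 4.74% were lower and 7.55% higher in Z-on, and 9.48% lower and 14.6% higher in M-on. In both comparisons, which share the littermate arrays, these were Ndufa2, Ndufa3, Ndufa4, Ndufa5, Ndufa6, Ndufa13, Ndufb5 and Ndufc1. For Ndufc1 this holds for the probe set used, and its other probe set was called higher, by 0.64 in Z-on and 0.77 in M-on. Ndufa13 was lower by 0.94 ± 0.15 in Z-on (adjusted p = 0.00146) and by 1.02 ± 0.15 in M-on (adjusted p = 0.0006). Ndufa5 was lower by 0.56 ± 0.13 and 0.85 ± 0.13 (adjusted p = 0.013 and 0.000756), and Ndufa6 by 0.51 ± 0.11 and 0.78 ± 0.11 (0.0109 and 0.000679). In Z-on, Ndufa6 was not called after quantile normalization (-0.36, adjusted p = 0.0944) or cyclic loess (-0.32, adjusted p = 0.118). Ndufa3 read 1833.9, 1926.6 and 1696.9 in Z-on and 1757.9, 2012.8 and 2415.7 in M-on, all below the littermates at 2948.2, 2751.2 and 2928. Ndufa3 and Ndufb5 lost their calls in both on groups under both of these normalizations, with Ndufa3 in Z-on at an adjusted p of 0.0588 and 0.0507. Ndufc1 in M-on lost its call after cyclic loess alone (-0.44, adjusted p = 0.0524). The only rise was that of Ndufb1 in Z-on, by 0.90 ± 0.23 (adjusted p = 0.0213), and 0 rose in M-on. The Nduf medians were -0.27 and -0.12, against 0.06 and 0.08 over all genes. In the brightest decile, the 31 Nduf genes had medians of -0.33 in Z-on and -0.13 in M-on. All 1240 genes of that decile had -0.17 and -0.13, so in M-on the bright Nduf genes did not stand apart by their median. Without Z-on 3 the Z-on count was 5, and Ndufa5, Ndufa2, Ndufb5 and Ndufb1 were lost (adjusted p = 0.0586 and 0.0591 for Ndufa5 and Ndufa2). Ndufb5 in Z-on also lost its call without Z-on 1, Z-on 2, littermate 1 or littermate 3, and Ndufb1 without Z-on 2, littermate 1 or littermate 2. In M-on, Ndufb5 lost its call without littermate 3 (adjusted p = 0.0701) and Ndufc1 without M-on 1, littermate 2 or littermate 3 (0.0757 to 0.0828). Without M-on 1 and M-on 2, which left M-on 3 alone, the Nduf median in M-on against littermates was 0.13. Fitted on M-on and littermate arrays alone, the comparison gave 4 calls.

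Through the probe set used for each gene, the off groups differed from littermates in few Nduf genes. Many other genes were lower there in the deposited values, and fewer after quantile normalization. In Z-off 2 were higher and 2 lower, with 4.09% of all genes higher and 20.3% lower. In M-off 1 was higher and 2 lower, with 3.99% and 22.4% over all genes. These comparisons again share the littermates. Ndufb6 was higher by 0.84 ± 0.21 in each (adjusted p = 0.00969 for Z-off and 0.0093 for M-off), and stayed called with any single array left out. Ndufa13 was lower by 0.55 ± 0.15 in Z-off (0.0147) and by 0.46 ± 0.15 in M-off (0.034). Ndufa5 was higher and Ndufa7 lower in Z-off (0.0436 and 0.0354), and Ndufa3 was lower in M-off (0.0298). The calls of Ndufa13, Ndufa5, Ndufa7 and Ndufa3 were marginal. That of Ndufa13 in Z-off ended without Z-off 3 (0.0581), and the others each ended on leaving out any single one of 4 to 6 arrays. The Z-off count of 4 was 2 without Z-off 1, littermate 1 or littermate 3 and 1 without Z-off 3, and the M-off count of 3 was 1 without M-off 1, M-off 2, M-off 3 or littermate 3. The Nduf medians were -0.03 and 0.04, while all genes had medians of -0.19 in both comparisons. After quantile normalization the Nduf medians were -0.03 and 0.02, and those over all genes -0.05 and -0.05. The number of all genes called lower then went from 2512 to 989 in Z-off and from 2779 to 1049 in M-off. The gap between Nduf genes and all genes thus depended on the scaling. Of the 6 probe sets of Ndufs8, 4 were called lower in Z-off and 4 in M-off, with changes down to -1.48 and -1.63. Over all 74 Nduf probe sets, 3 were higher and 6 lower in Z-off, and 2 and 7 in M-off.

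With both proteins expressed, 0 Nduf genes differed between Z-on and M-on by limma, where 3.68% of all genes were higher and 1.48% lower. At an unadjusted p under 0.05 there were 8, and the smallest adjusted p was 0.0711, for Ndufaf4 at 0.71 ± 0.22. Ndufa7 was 1449.9 ± 34.6 in Z-on and 1930.1 ± 236 in M-on, a difference of -0.40 ± 0.13 (adjusted p = 0.0807). This count rests on M-on 1. Without that array 10 Nduf genes were called, Ndufaf4 higher (0.97 ± 0.19, adjusted p = 0.00331) and 9 lower. The 9 were Ndufaf1, Ndufa9, Ndufa7, Ndufs3, Ndufb7, Ndufb2, Ndufv3, Ndufv1 and Ndufb10, at differences from -0.91 for Ndufv3 to -0.41 for Ndufv1. Without M-on 1 and M-on 2 there were 6, 1 higher and 5 lower.

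The lines were also compared with expression shut off and in their response. Between Z-off and M-off 0 Nduf genes were called, with 0.0807% of all genes higher and 0.0484% lower, 1 Nduf gene at an unadjusted p under 0.05 (Ndufaf4) and a smallest adjusted p of 0.489. For the difference of the on-off changes between the lines, 0 Nduf genes were called, with 0.307% of all genes called in each direction. There 2 had an unadjusted p under 0.05, Ndufaf4 and Ndufaf1, and Ndufaf1 stood at -0.51 ± 0.23 (adjusted p = 0.325). Without M-on 1 the difference for Ndufaf4 was 1.46 with an adjusted p of 0.00243, and it was called there. Without M-on 1 and M-on 2 it was 1.45 (adjusted p = 0.0125), and Ndufb10 was also called, at -0.75 (0.0474). A gene that fell in a single line is therefore not shown to respond differently there.

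Probe sets of the same gene often disagreed. Of 20 Nduf genes with several probe sets, 15 in the Z line and 16 in the M line had probe sets with different calls. Over all 74 probe sets, 28 fell and 6 rose in the Z line, with 8.14% and 27.9% of all probe sets called, and 20 fell and 11 rose in the M line, with 13.4% and 33.2%. Ndufc1, Ndufs8 and Ndufab1 each had a probe set called higher and another called lower in both lines. For Ndufc1, the probe set 1416285_at read 822.1 to 954.1 in Z-on and 441.8 to 556.1 in Z-off, and 928.7 to 1027.4 in M-on and 527.2 to 597.7 in M-off. It rose by 0.80 ± 0.13 and 0.81 ± 0.13 (adjusted p = 0.000389 and 0.000226 among all probe sets), while the brighter 1448284_a_at fell as given above. For Ndufs8, 1434212_at rose by 1.59 ± 0.23 and 1.85 ± 0.23 while 1423907_a_at fell by 0.70 ± 0.22 and 0.75 ± 0.22. Against littermates, no Ndufs8 probe set was called higher in Z-on or M-on, and the largest changes were 0.12 and 0.22. In each off group, 4 of its 6 probe sets were called lower than in littermates. For Ndufab1, 1428160_at rose by 0.68 ± 0.13 and 1.08 ± 0.13, 1428159_s_at fell in the Z line, and 1435934_at, at 0.5 to 19.4 over all arrays of the 4 transgenic groups, fell in the M line.

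For Ndufv1 the choice of probe set decided the call. Its brightest probe set, 1415967_at, was not called, whereas 1415966_a_at read 327.1 to 729.8 in Z-on against 1428.4 to 1505.4 in Z-off, and 618.5 to 756.6 in M-on against 1258.4 to 1405 in M-off. That probe set fell by 1.42 ± 0.22 and 0.99 ± 0.22 (adjusted p = 0.000289 and 0.0023 among all probe sets), and littermates at 1253 to 1470.1 lay with the off arrays. Another probe set, 1456015_x_at, fell by 1.26 ± 0.21 and 0.92 ± 0.21. In Ndufa5 and Ndufb6 the second probe set changed by -0.16 ± 0.14 and -0.26 ± 0.12 in the Z line, without a call, beside falls of 0.94 and 1.27 in the probe set used. Where in each transcript these probe sets lie was not analysed here, and a change of the gene and a change of 1 stretch of its transcripts cannot be told apart for these genes.

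**Figure D5:**
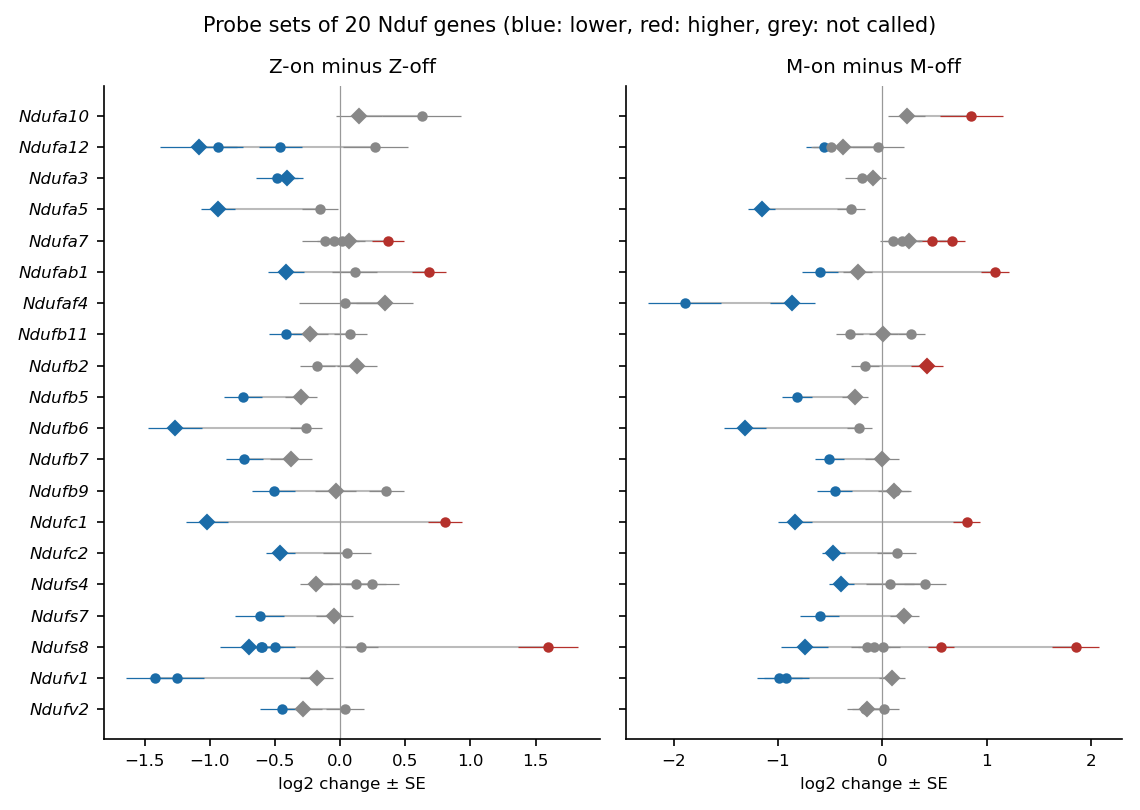
Change of every single-gene probe set (points with bars of 1 SE, log2 scale) of the 20 Nduf genes that have several, Z line left and M line right; diamonds mark the probe set used for the gene, blue points were called lower and red points higher among all probe sets. Ndufc1, Ndufs8 and Ndufab1 have blue and red points on 1 line in both panels, and Ndufv1 has 2 blue points beside an uncalled diamond.

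Regulators of nuclear respiratory chain genes were read beside the Nduf genes. Of 12 measured, 5 rose and 0 fell in the Z line, and 3 rose and 3 fell in the M line. The shares that rose, 41.7% and 25%, are to be read against 31.8% and 38.1% of all genes. Nrf1, a transcription factor of respiratory chain promoters, read 68.4 to 89 in Z-on against 23 to 24.8 in Z-off, and 90 to 100.3 in M-on against 16.5 to 24.7 in M-off. It rose by 1.26 ± 0.13 (adjusted p = 1.7e-05) and 1.63 ± 0.13 (adjusted p = 1.7e-06), and littermates at 34.9 to 45.1 lay between. After quantile normalization these rises were 0.82 and 1.21 and still called. Nrf1 was read by a dim probe set, and positive changes over all genes were concentrated among dimmer probe sets. Ppargc1b, a coactivator of these factors, rose by 0.92 ± 0.20 and 0.78 ± 0.20. Its changes after the other normalizations are not given here. Gabpa, which binds ETS motifs, read 31.9 to 151.2 in M-on against 189.5 to 195.7 in M-off and fell by 1.49 ± 0.35 (adjusted p = 0.003), and in the Z line it changed by -0.10 ± 0.35. Yy1 fell in the M line by 0.57 ± 0.15 (adjusted p = 0.0058) and changed by 0.00 ± 0.15 in the Z line. For Gabpa and Yy1 the difference between the lines was not called (adjusted p = 0.208 and 0.222).

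Promoters of the Nduf genes were searched for motifs that Nrf1, ETS factors such as Gabpa, Yy1 and the estrogen-related receptors (ERR) are known to bind. RefSeq promoter windows (GRCm38.p6, from 250 bases before to 50 after the gene start) were found for 36 of the 39 genes, in 38 windows, and both strands were searched with overlapping matches counted. The NRF1 core GCGCATGC was in 4 of the 38 windows (10.5%, against 2.71% of 32851 windows of all genes). The ETS motif CCGGAAG was in 5 (13.2% against 8.86%), the YY1 motif AAGATGGC in 6 (15.8% against 2.75%) and the ERR motif AAGGTCA in 2 (5.26% against 4.72%). These are counts of letters and not of bound sites. The letters of the YY1 motif include ATG, the start codon, and whether the matches lie at translation starts was not analysed here. All 6 YY1 matches lay on the gene's own strand, from base 23 to base 39 after the start. Of 927 matches in all windows, 284 (30.6%) lay on the gene strand after the start. The 6 stretches of 30 bases are printed because they share this placement, 5′ to 3′ on the gene strand with the motif in capitals.
Ndufa3 (chr7:3617384-3617413, + strand): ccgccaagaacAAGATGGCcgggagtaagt
Ndufa9 (chr6:126849097-126849126, - strand): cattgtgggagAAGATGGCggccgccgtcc
Ndufb8 (chr19:44555393-44555422, - strand): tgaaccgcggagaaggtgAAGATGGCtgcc
Ndufc1 (chr3:51408915-51408944, - strand): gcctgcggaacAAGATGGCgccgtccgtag
Ndufs4 (chr13:114388045-114388074, - strand): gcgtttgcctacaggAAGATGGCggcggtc
Ndufs7 (chr10:80249462-80249491, + strand): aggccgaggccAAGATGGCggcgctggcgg

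These 6 genes did not move together. Ndufc1 fell in both lines, Ndufa3 and Ndufa9 in the Z line, Ndufs4 in the M line, Ndufb8 rose in the M line and Ndufs7 was called in neither. Among the 10 genes that fell in both lines, 9 had a window, of which 1 held the NRF1 core, 2 the ETS motif, 1 the YY1 motif and 0 the ERR motif. Among the 16 called in neither line, 14 had a window, with 1, 2, 1 and 1. The windows of Ndufa4, Ndufa6 and Ndufb6 are printed as examples of the genes that fell in both lines, with 0, 1 and 1 matches. Ndufa6 holds the NRF1 core on the reverse strand 83 bases before the start, and Ndufb6 the ETS motif on the reverse strand 232 bases before it, both in capitals.
Ndufa4 (chr6:11907401-11907700, - strand): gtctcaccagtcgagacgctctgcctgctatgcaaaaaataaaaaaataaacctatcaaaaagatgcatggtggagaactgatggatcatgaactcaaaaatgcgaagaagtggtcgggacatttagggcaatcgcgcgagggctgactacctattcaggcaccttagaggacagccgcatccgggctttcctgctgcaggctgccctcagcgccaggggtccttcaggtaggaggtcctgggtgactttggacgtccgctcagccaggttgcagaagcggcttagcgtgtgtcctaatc
Ndufa6 (chr15:82354242-82354541, - strand): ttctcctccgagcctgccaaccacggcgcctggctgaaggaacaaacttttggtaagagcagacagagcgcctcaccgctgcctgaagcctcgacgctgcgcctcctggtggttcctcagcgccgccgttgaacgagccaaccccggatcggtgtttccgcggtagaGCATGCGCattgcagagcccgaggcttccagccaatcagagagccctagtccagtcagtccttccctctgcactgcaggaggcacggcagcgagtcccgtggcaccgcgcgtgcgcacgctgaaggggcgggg
Ndufb6 (chr4:40279372-40279671, - strand): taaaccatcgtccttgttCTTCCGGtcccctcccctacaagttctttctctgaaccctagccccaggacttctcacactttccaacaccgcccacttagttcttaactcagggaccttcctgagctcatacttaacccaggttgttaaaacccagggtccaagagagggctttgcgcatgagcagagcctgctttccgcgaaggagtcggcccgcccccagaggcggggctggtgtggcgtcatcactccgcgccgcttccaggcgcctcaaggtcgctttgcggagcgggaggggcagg

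Other genes that supply or adjoin complex I were read from fixed lists. Their counts are to be read against 31.8% higher and 7.56% lower over all genes in the Z line. In the M line these shares were 38.1% and 12.5%. Of 10 further assembly factors without an Nduf name, 0 were called in the Z line and 3 fell in the M line, among them Foxred1 (-0.56 ± 0.13, adjusted p = 0.0029; also called lower in the Z line after quantile normalization, at -0.53) and Tmem70 (-0.75 ± 0.19, adjusted p = 0.0057). Of 10 subunits of mitochondrial dehydrogenases that make NADH, 2 rose and 1 fell in the Z line, and 0 rose and 2 fell in the M line. Pdhb of pyruvate dehydrogenase rose in the Z line by 0.54 (adjusted p = 0.00321), and Dld, shared by several of these enzymes, fell in the M line by 0.75 (adjusted p = 0.00161). Of 9 genes that feed the quinone pool by other routes, 3 rose in the Z line and 0 fell, and 2 rose and 1 fell in the M line. Sdhd of complex II rose in both lines, by 0.54 ± 0.16 (adjusted p = 0.017) and 1.06 ± 0.16 (adjusted p = 0.00012). Gpd2, the mitochondrial glycerol phosphate dehydrogenase, rose in the Z line by 1.16 ± 0.23 (adjusted p = 0.0015).

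Genes of other mitochondrial complexes were counted in the same way. Of 50 genes of complexes II to V, 19 fell and 8 rose in the Z line (median -0.24), and 15 fell and 8 rose in the M line (median -0.18). The falls were 38% and 30% of the list, against 7.56% and 12.5% of all genes. The shares that fell among bright genes, given above, were larger, and the M-line share of this list was near theirs. How bright the genes of this list are is not given here. After quantile normalization 9 fell and 9 rose in the Z line and 11 fell and 11 rose in the M line. Of 74 genes of mitochondrial ribosomal proteins, 14 fell and 9 rose in the Z line and 11 fell and 17 rose in the M line, with medians of -0.02 and -0.07. The M-line share that fell, 14.9%, was near the 12.5% of all genes. The arrays that were low for the Nduf genes were low for these too. M-on 1 was the lowest M-on array for 38 of the 50 and 60 of the 74, and Z-on 3 the lowest Z-on array for 30 and 46.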

How the data were processed

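Liver RNA of 15 mice was hybridised to Affymetrix mouse arrays. RNA was prepared with TRIZOL and RNeasy, per the labels' protocols. The authors deposited 1 linear intensity per probe set and array, between 0 and 22995.4. RMA, with no version, is the tool named in the submitters' processing notes, but each array had a 2% trimmed mean of 150.063 to 150.08 and the medians differed, so the values were treated as scaled linear signals. The sources used here do not give the scaling, which bears on every change, since on and off arrays differ in median.

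Of 22690 probe sets, 64 were controls, 20380 had 1 gene, 691 several and 1555 none, by the platform's table of probe genes. The probe set with the highest mean was used for each of 12393 genes. After adding 16 and taking log2, limma 3.58.1 in R 4.3.3 was fitted with 1 mean per group to all 15 arrays (10 residual and 3.88 prior degrees of freedom). Tests were two-sided, with Benjamini-Hochberg adjustment over all genes within each of 9 contrasts. The number of arrays limits the precision. The fit was tested on simulated data, and plots were made in Python 3.11.15 (matplotlib 3.10.9).

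The Nduf genes, gene lists and tests were chosen with earlier results of these data known. Genes were named by adjusted p in each contrast, by the lowest p over the groups and the highest signal in each module, and by opposite calls of probe sets; other Nduf genes are named to account for all of them. Of the other lists, the called genes with the lowest adjusted p were named, and Gabpa and Yy1 as factors whose motifs were searched. Alternatives were quantile and cyclic loess normalization, constants of 1 and 64, a filter at the 40th percentile of mean signal, all probe sets, the mean of a gene's probe sets, only the groups compared, an intensity trend with robust spread, the replicate number as a block, each array left out, and M-on 1 and 2 left out. Same-numbered arrays of different groups had deviations that correlated at -0.171 to 0.0662 (median -0.0135, 30 pairs), so the numbers were not taken to pair the mice. Sequences and their coordinates are from RefSeq GRCm38.p6, and the sources used here name no build for the array.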

Additional observations from a re-analysis of the deposited data

How the results depend on the processing

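Counts of Nduf genes called are given here as the total of both directions. With the transgene on against off, the Z-line count of 18 became 8 after quantile normalization and 9 after cyclic loess, and 12 to 17 with each array left out. The M-line count of 16 became 11 to 15 with each array left out. Counts without M-on 1 and 2 are not given, since M-on 3 was then the only M-on array. Between Z-on and M-on the count of 0 became 1 with the constant 64, 2 without dim genes, 1 with the mean of probe sets, 1 with trend and robust spread, 6 without M-on 1 and 2, and 0 to 10 with each array left out. Against littermates, the Z-on count of 9 was 5 to 8 with each array left out, and the M-on count of 8 was 4 in the fit of only those groups and 7 to 12 with each array left out. The Z-off count of 4 was 2 after quantile normalization, 2 after cyclic loess, 2 with the constant 1, and 1 to 3 with each array left out. The M-off count of 3 was 5 with the constant 64, 5 with the mean of probe sets, and 1 to 2 with each array left out. For the difference of the on-off changes the count of 0 was 0 to 1 with each array left out. With the replicate number as a block the counts were 16 (Z line), 14 (M line), 8 and 8 (on groups against littermates), 2 (Z-off against littermates) and 3 (M-off), and 0 in the other comparisons; since the numbers do not pair the mice, a call lost there is not a weaker effect.

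Over 70 pairs of a named gene and a comparison, 997 settings left the call as it was, 144 lost it, 20 gained it and 4 reversed a direction. The reversals were Ndufab1 in the Z line (0.13), Ndufs8 in the M line (0.24) and Ndufc1 in M-on against littermates (0.12), all with the mean of probe sets, and Ndufaf5 in the M line (-0.056) after cyclic loess. The first 3 have probe sets that moved in opposite directions; the cause of the last was not tested. Of the 16 falls in the Z line, 7 stayed called under both normalizations, and of the 12 in the M line 9 did. Of all genes called in the Z line 80.8% were higher, and 59.9% after quantile normalization; in the M line these were 75.4% and 60.2%, against littermates 61.4% and 50.2% in Z-on, 16.8% and 37.8% in Z-off and 15.1% and 35.0% in M-off, and between the off groups 62.5% and 50%.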

Other observations

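Probe sets that match an Nduf gene together with another gene were left out of the counts above, and some of them read genes that have no probe set of their own. The probe set 1428075_at of Ndufb4, Ndufb4b and Ndufb4c, which encode a distal-arm subunit and its copies, read 961.7 to 1192.2 in Z-on, 1593.2 to 1697.7 in Z-off, 975.9 to 1334.2 in M-on, 1408.6 to 1679.1 in M-off and 1607.6 to 1685 in littermates. On arrays lay below off arrays in each line, with falls of 0.58 ± 0.14 (adjusted p = 0.00432 among all probe sets) and 0.38 ± 0.14 (adjusted p = 0.0324). The shared probe set of Ndufs5 and Ndufs5-ps fell by 0.53 ± 0.17 (adjusted p = 0.022) and 0.89 ± 0.17 (adjusted p = 0.000674), whereas the probe set of Ndufs5 alone was called in neither line. The probe set of Ndufa11 and Ndufa11b changed by 0.04 ± 0.14 in the Z line and rose by 0.39 ± 0.14 in the M line (adjusted p = 0.0331). That of Ndufs6 and Ndufs6b was called in neither line. Which of the matching genes gave these signals was not tested. A second probe set of Ndufb4, Ndufb4b and Ndufb4c, 1428076_s_at, is not described here, so their falls rest on the probe set given. Those that Ndufa13, Ndufab1 and Ndufb2 share with another gene are not described either.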
